A study of Mus musculus with 40 samples.

Results

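The Cyp4a cluster of mouse chromosome 4 was examined for binding of the corepressors SMRT and NCoR and of the histone deacetylase HDAC3 in fed liver. Its 6 member genes were Cyp4a10, Cyp4a14, Cyp4a31, Cyp4a32, Cyp4a12a and Cyp4a12b. Peaks from chromatin immunoprecipitation followed by sequencing (ChIP-seq) were taken as members when their centre lay inside one of these genes or within 50 kb of one, which gave a single stretch, chr4:115249046-115671602 (mm10, 423 kb). It held 6 of 10654 SMRT peaks, 16 of 35138 NCoR peaks and 9 of 14462 HDAC3 peaks. Peaks of the 3 lists with centres at most 200 bp apart were merged into sites, of which the cluster had 16 of 35999.

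All 3 lists came from ad libitum fed male C57BL/6 mice of genotype Bcl6 fl/fl, whose floxed Bcl6 gene was intact, labelled wild type by the submitters. Each list gave 1 set of peaks for 3 libraries with no value per library, so no error between animals could be computed. The study's 40 samples fell into 18 groups, of which the other 15 groups (other targets, genotypes and inputs) were not analysed here. The chromatin came from whole liver, so the lists do not say which cells carried a peak. Among genes of known cell type, 6 of 6 hepatocyte genes had an NCoR peak within 10 kb of a start site, 5 of 6 had a SMRT peak and 2 of 6 an HDAC3 peak. Of 3 genes each for Kupffer cells, sinusoidal endothelial cells, cholangiocytes, and muscle and neurons, SMRT and HDAC3 had a peak near 0 of the genes, and NCoR near 0, 2, 1 and 0 of the 3, respectively. Albumin, the defining plasma protein of hepatocytes, had an NCoR peak but neither a SMRT nor an HDAC3 peak in that distance.

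CYP4A enzymes are microsomal cytochromes P450 that hydroxylate the terminal (omega) carbon of fatty acids, the first step of a route that yields dicarboxylic acids. Cyp4a10, Cyp4a14 and their close relatives are classical target genes of PPARα, the nuclear receptor that drives fat use during fasting. Cyp4a12a and Cyp4a12b belong to the male-biased, hormone-dependent side of the family, and Cyp4a12a makes 20-HETE, a vasoactive derivative of arachidonic acid. NCoR and SMRT are related scaffold proteins that unliganded nuclear receptors and repressors such as BCL6 bring to DNA, and both bind and activate HDAC3, which removes acetyl groups from histones. The member genes arose by duplication. Coding sequences of Cyp4a12a and Cyp4a12b were 98.5% identical, those of Cyp4a10, Cyp4a31 and Cyp4a32 were 96.0% to 97.2% identical to each other, and Cyp4a14 was at most 75.9% identical to any of the other 5 members.

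Some bound stretches recurred in near-identical form beside more than 1 member gene, and the sequences that show this follow (GRCm38 reference, plus strand). The first set is the distal upstream site of Cyp4a10 (chr4:115514007-115514206), Cyp4a31 (chr4:115555604-115555803) and Cyp4a32 (chr4:115596849-115597048), each bound by all 3 cofactors. At Cyp4a31 the SMRT and HDAC3 centres were 141 and 133 bp from the NCoR centre, outside the printed stretch. Capitals mark the positions at which the 3 stretches were not all alike, an extra base included.
Cyp4a10 upstream site: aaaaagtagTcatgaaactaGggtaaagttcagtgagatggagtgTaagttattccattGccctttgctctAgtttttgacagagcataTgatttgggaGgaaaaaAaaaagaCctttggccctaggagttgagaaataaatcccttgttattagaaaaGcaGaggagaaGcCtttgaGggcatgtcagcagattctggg
Cyp4a31 upstream site: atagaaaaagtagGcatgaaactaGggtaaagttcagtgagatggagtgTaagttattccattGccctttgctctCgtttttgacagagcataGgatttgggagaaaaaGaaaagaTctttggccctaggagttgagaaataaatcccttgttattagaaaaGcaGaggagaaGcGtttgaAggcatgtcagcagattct
Cyp4a32 upstream site: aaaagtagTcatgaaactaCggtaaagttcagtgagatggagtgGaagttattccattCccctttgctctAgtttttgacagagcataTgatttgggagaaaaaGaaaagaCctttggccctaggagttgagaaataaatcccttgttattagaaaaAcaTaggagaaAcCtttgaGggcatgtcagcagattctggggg

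In the alignment of the 3 upstream stretches, 14 of 196 columns differed, so 92.9% were shared by all 3. The second set is a stretch of the first intron of Cyp4a10 (chr4:115519212-115519451), Cyp4a31 (chr4:115564602-115564841) and Cyp4a32 (chr4:115601853-115602092). Here the Cyp4a10 and Cyp4a31 stretches were bound by all 3 cofactors and the Cyp4a32 stretch held no peak. Capitals mark matches to TTCNNNGAA, the letters shared by BCL6 and STAT motifs.
Cyp4a10 intron site: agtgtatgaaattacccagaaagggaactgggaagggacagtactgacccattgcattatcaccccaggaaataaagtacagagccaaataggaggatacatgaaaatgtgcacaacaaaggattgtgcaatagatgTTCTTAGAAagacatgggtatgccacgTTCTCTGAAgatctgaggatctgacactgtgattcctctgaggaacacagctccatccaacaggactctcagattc
Cyp4a31 intron site: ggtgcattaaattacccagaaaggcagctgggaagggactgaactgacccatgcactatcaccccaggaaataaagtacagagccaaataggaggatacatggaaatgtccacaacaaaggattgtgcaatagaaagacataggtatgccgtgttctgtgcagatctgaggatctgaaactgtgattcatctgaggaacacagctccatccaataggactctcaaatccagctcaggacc
Cyp4a32 intron copy: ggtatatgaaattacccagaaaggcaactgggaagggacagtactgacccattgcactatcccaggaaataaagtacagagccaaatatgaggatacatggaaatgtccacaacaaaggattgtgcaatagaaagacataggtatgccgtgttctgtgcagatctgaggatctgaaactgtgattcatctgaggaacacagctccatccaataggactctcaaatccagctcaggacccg

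The third set is the promoter of Cyp4a12b (chr4:115411385-115411584), which held an NCoR peak, and the matching promoter of Cyp4a12a (chr4:115298831-115299030), which held none. Capitals mark the 7 of 200 aligned columns that differed, 1 of them an extra base.
Cyp4a12b promoter site: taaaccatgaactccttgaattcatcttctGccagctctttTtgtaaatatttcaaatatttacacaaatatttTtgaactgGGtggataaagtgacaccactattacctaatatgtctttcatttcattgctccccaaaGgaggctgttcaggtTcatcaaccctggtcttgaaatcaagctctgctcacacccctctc
Cyp4a12a promoter copy: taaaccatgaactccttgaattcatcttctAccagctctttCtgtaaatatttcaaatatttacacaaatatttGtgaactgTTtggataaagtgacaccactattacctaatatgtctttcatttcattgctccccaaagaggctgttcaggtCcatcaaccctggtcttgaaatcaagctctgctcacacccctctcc

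The last is the site upstream of Cyp4a14 (chr4:115497588-115497787), where all 3 cofactors met on a sequence with no copy in the cluster. Capitals mark AGGTCA, the half-site that many nuclear receptors recognise, which began at the NCoR peak centre.
Cyp4a14 upstream site: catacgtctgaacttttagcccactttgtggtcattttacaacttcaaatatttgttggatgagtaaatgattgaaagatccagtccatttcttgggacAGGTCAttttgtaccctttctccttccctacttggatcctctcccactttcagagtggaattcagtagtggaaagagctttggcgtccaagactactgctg

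To learn how the 3 cofactors were arranged, the 16 sites were placed on the gene map. Every site held an NCoR peak. Of the 16, 6 were bound by all 3 cofactors, 3 by NCoR and HDAC3, and 7 by NCoR alone, and no SMRT or HDAC3 peak lacked NCoR. The 6 sites of all 3 cofactors lay within 99.3 kb, from the stretch upstream of Cyp4a14 to the stretch upstream of Cyp4a32. None of them was nearest to Cyp4a12a, Cyp4a12b or Cyp4b1, a neighbouring cytochrome P450 gene of another subfamily that was nearest to 2 of the sites. Gaps between neighbouring sites ran from 3840 bp to 86203 bp with a median of 10848 bp, and the widest spanned the Cyp4a12b, Cyp4a30b and Cyp4a14 genes.

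**Figure D1:**
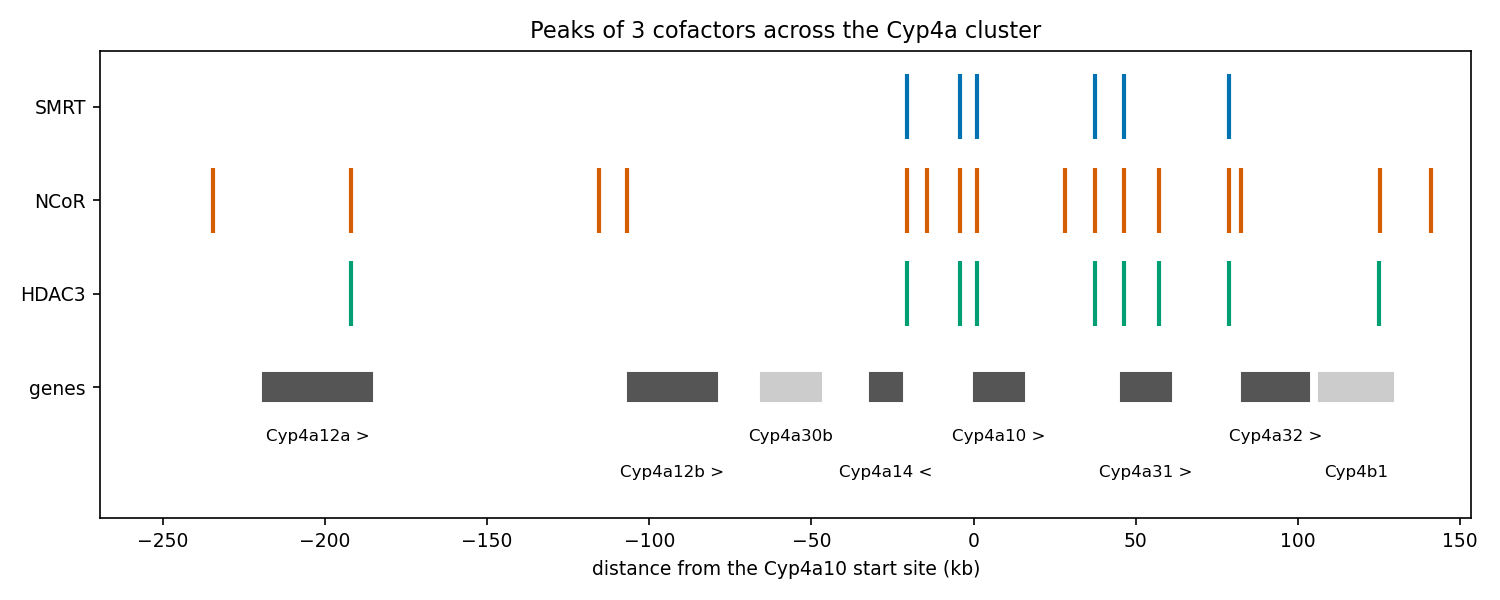
Peak centres of SMRT, NCoR and HDAC3 (vertical bars) along the Cyp4a cluster, in kb from the Cyp4a10 start site; dark boxes are the 6 member genes with their direction and light boxes other protein-coding genes. The 6 SMRT peaks all sit at NCoR peaks between the stretch upstream of Cyp4a14 and the stretch upstream of Cyp4a32.

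Cyp4a10, a fasting-inducible member, was nearest to 2 sites, and both were bound by all 3 cofactors. The first lay 4158 bp upstream of its start site (NCoR peak chr4:115513992-115514220) and the second 1063 bp downstream in the first intron (NCoR peak chr4:115519237-115519465). At the upstream site the SMRT and HDAC3 centres were 23 and 10 bp from the NCoR centre. At the intron site they were 31 and 3 bp away. No site fell in the Cyp4a10 promoter, defined as 1000 bp upstream to 100 bp downstream of a start site.

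Cyp4a31, the member whose chromatin the study also examined by ChIP with quantitative PCR, was nearest to 4 sites, more than any other member, or to 2 when start sites of pseudogenes and other gene types were counted. All 3 cofactors bound 7946 bp upstream (NCoR peak chr4:115555589-115555817) and 945 bp downstream in the first intron (NCoR peak chr4:115564529-115564757). NCoR and HDAC3 without SMRT bound 11793 bp downstream in an intron (NCoR peak chr4:115575377-115575605), and NCoR alone bound 17182 bp upstream (NCoR peak chr4:115546353-115546581). ChIP with quantitative PCR is described in the study for BCL6, PPARα and PPARδ, not for SMRT, NCoR or HDAC3. The study's Cyp4a31 primer pair matched chr4:115575477-115575588, an amplicon whose middle was 41 bp from the centre of the NCoR and HDAC3 site. That middle was 11834 bp downstream of the nearest start site in the annotation used here, which is not the distance in the study's name for the pair, so the placement rests on the primer sequences. At that site the HDAC3 centre was 5 bp from the NCoR centre.

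Cyp4a32 was nearest to 2 sites. All 3 cofactors bound 4027 bp upstream (NCoR peak chr4:115596834-115597062), with the SMRT centre 1 bp and the HDAC3 centre 41 bp from the NCoR centre. NCoR alone bound its promoter, 187 bp upstream of the start site (NCoR peak chr4:115600674-115600902). Cyp4a32 thus had the upstream site of its relatives but no peak in the first intron.

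Cyp4a14, which runs in the opposite direction, was nearest to 2 sites. All 3 cofactors bound 1545 bp upstream of its start site (NCoR peak chr4:115497573-115497801), with SMRT 21 bp and HDAC3 84 bp from the NCoR centre. NCoR alone bound 7864 bp upstream (NCoR peak chr4:115503892-115504120), where the central 200 bp were repeat-masked over their whole length (100% of bases). No peak lay inside the Cyp4a14 gene.

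The male-biased members had no site of all 3 cofactors. Cyp4a12a was nearest to an NCoR-alone site 15448 bp upstream (NCoR peak chr4:115283484-115283712) and to an NCoR and HDAC3 site 27234 bp downstream in a coding exon (NCoR peak chr4:115326166-115326394). Cyp4a12b was nearest to 2 NCoR-alone sites, 8867 bp upstream (NCoR peak chr4:115402643-115402871) and 140 bp upstream in its promoter (NCoR peak chr4:115411370-115411598). Neither gene was nearest to a SMRT peak. Beyond the members, Cyp4b1 was nearest to an NCoR and HDAC3 site in its own intron, 4231 bp downstream of its start site (NCoR peak chr4:115643378-115643606), and to an NCoR-alone site 11592 bp upstream (NCoR peak chr4:115659201-115659429).

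**Figure D2:**
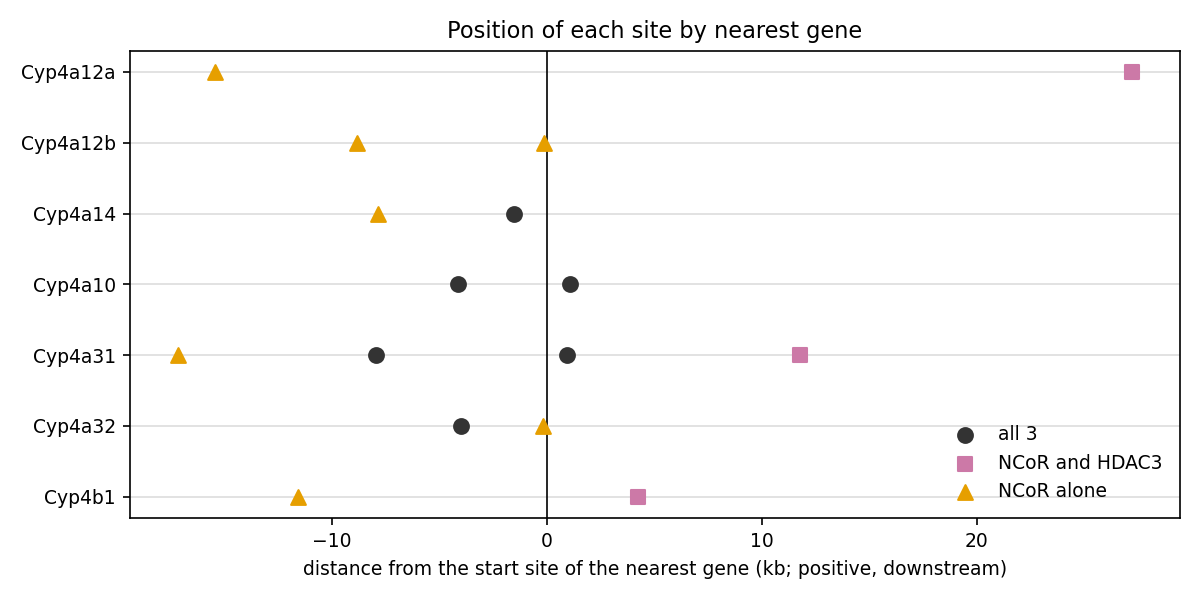
Distance of each of the 16 sites from the start site of the nearest protein-coding gene, in kb, by gene and cofactor class (circles, all 3; squares, NCoR and HDAC3; triangles, NCoR alone). Of the 6 sites of all 3 cofactors, 5 lie within 5 kb of a start site, and the Cyp4a12a and Cyp4a12b rows hold none of them.

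Read by gene, 6 of 6 members were nearest to at least 1 site, against 49.5% of 21911 protein-coding genes. At least 1 site of all 3 cofactors was nearest to 4 of 6 members, against 21.0% of protein-coding genes. Cyp4a10 and Cyp4a31 each had 2 such sites, a number reached by 9.27% of protein-coding genes. The members are neighbours that share flanks and were chosen as a group, so these counts describe 1 locus and not 6 independent genes.

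Relative to its length the cluster was rich in peaks. It held 14.2 SMRT, 37.9 NCoR and 21.3 HDAC3 peaks per Mb, where the known bases of the genome held 4.02, 13.3 and 5.46. Other tandem clusters of liver enzyme genes, delimited in the same way, were also above the genome. The Acot cluster of acyl-CoA thioesterases, which release free fatty acids, held 94.0 NCoR peaks per Mb, the Cyp4f cluster of related omega-hydroxylases 36.5 and the Cyp3a cluster of drug-metabolising enzymes 33.8. The comparison is descriptive, with 1 stretch per cluster.

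The cofactor classes of the cluster peaks were then set against the lists they came from. All 6 SMRT peaks had both other cofactors within 200 bp (100%, exact 95% binomial interval 54.1 to 100), against 81.9% of the SMRT list. Of the 16 NCoR peaks, 6 had both others (37.5%, 15.2 to 64.6), against 24.9% of the NCoR list, and 7 had neither (43.8%, 19.8 to 70.1), against 56.1%. Of the 9 HDAC3 peaks, 6 had both others (66.7%, 29.9 to 92.5), against 60.4% of the HDAC3 list. Each interval contained the share of the whole list, so with this number of peaks no departure from the lists was detectable. The intervals cover counting error only.

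Among the comparison clusters, both other cofactors joined 8 of 21 NCoR peaks at the Acot cluster (38.1%, 18.1 to 61.6), 4 of 18 at the Cyp4f cluster (22.2%, 6.41 to 47.6) and 14 of 29 at the Cyp3a cluster (48.3%, 29.4 to 67.5). These intervals overlapped that of the Cyp4a cluster.

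**Figure D3:**
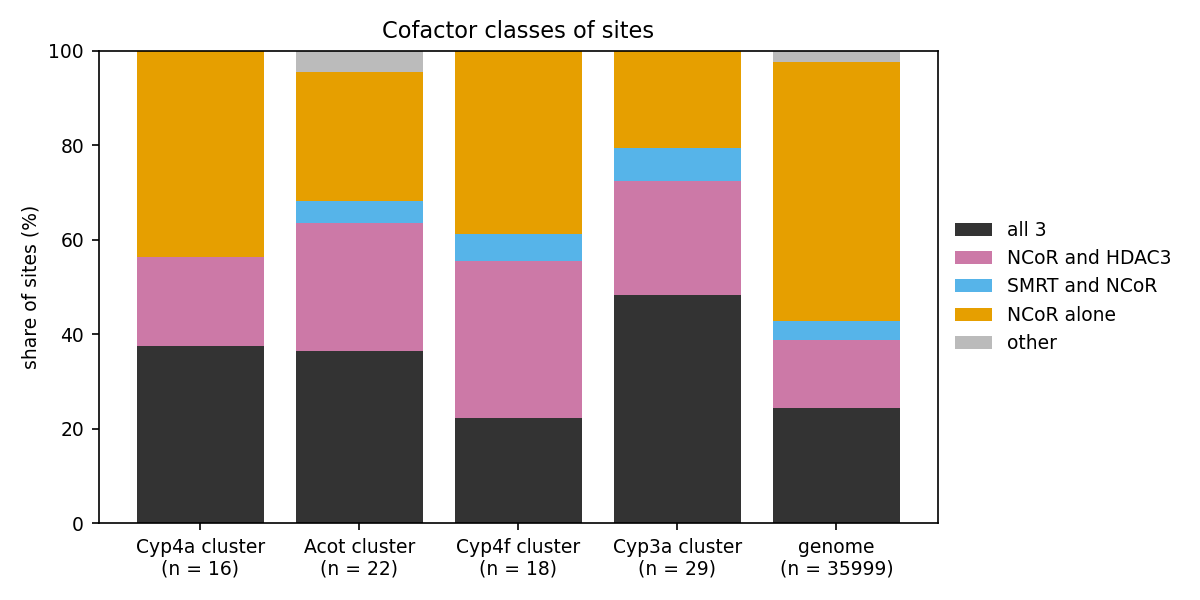
Share of sites (%) in each cofactor class at the Cyp4a cluster, 3 other gene clusters and the genome, with the number of sites under each bar; other means SMRT with HDAC3, SMRT alone or HDAC3 alone. The Cyp4a cluster has 37.5% of sites bound by all 3 and 43.8% by NCoR alone, where the genome has 24.3% and 54.8%.

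The distance between peak centres was used to ask how closely the cofactors met. The SMRT centre lay a median of 22 bp from the NCoR centre over the 6 shared sites of the cluster, and 24 bp over 10201 pairs in the genome. The HDAC3 centre lay a median of 41 bp away over 9 sites, and 23 bp over 13951 pairs. More than 100 bp separated 1 of 6 SMRT pairs, against 2.74% of all pairs, and 2 of 9 HDAC3 pairs, against 2.58%. The SMRT pair and 1 of the HDAC3 pairs were at the same place, the upstream site of Cyp4a31, where SMRT and HDAC3 sat 141 and 133 bp to the same side of NCoR and 8 bp from each other. The other HDAC3 pair, 135 bp apart, was in the Cyp4b1 intron. Both places have near-identical copies elsewhere in the cluster, and the part of such copies in the distances was not tested.

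**Figure D4:**
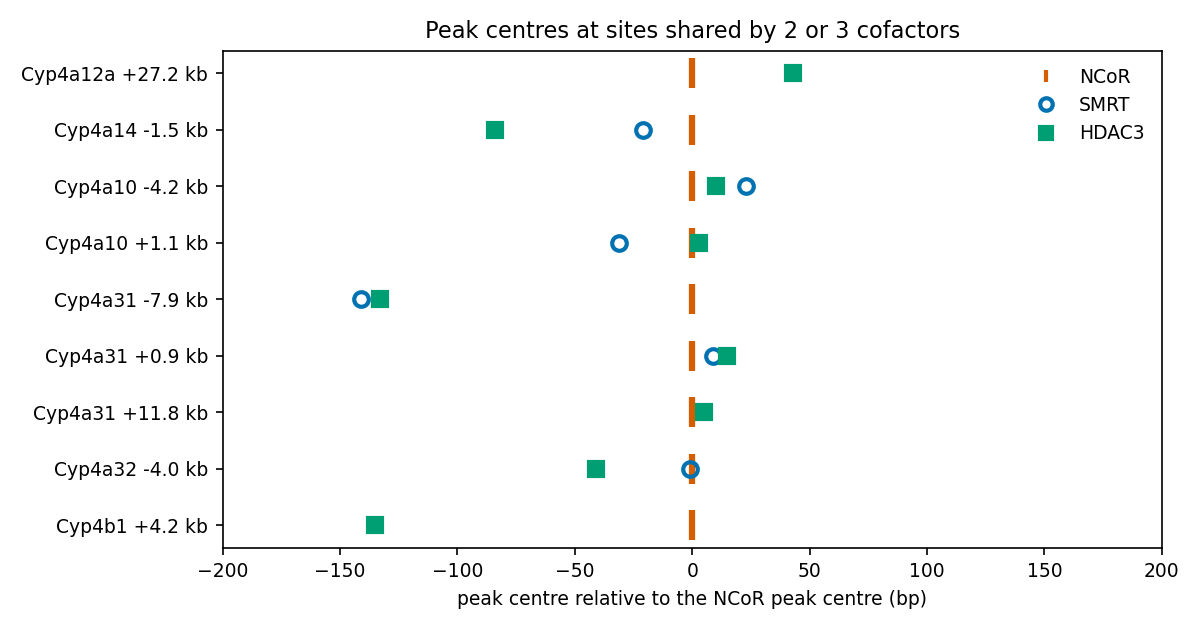
Centres of the SMRT (circles) and HDAC3 (squares) peaks relative to the NCoR centre (bar at 0), in bp toward higher coordinates, at the 9 sites shared by 2 or 3 cofactors, named by nearest gene and distance. SMRT and HDAC3 lie together 141 and 133 bp from NCoR at the upstream site of Cyp4a31.

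Copies of each site were sought by aligning its central 200 bp to the rest of the cluster. At least 100 bases aligned elsewhere for 14 of 16 sites, the exceptions being the site 1545 bp upstream of Cyp4a14 and the site 11592 bp upstream of Cyp4b1. Copies were counted from each site, so the same place can count for several sites and a pair from both ends. Of the 71 copies, 44 belonged to the NCoR-alone sites 8867 bp upstream of Cyp4a12b and 7864 bp upstream of Cyp4a14. The central 200 bp of these sites were repeat-masked over 77.5% and 100% of bases, and 23 of the 44 copies lay on the minus strand. The upstream sites of Cyp4a10, Cyp4a31 and Cyp4a32 were copies of each other, 93.9% to 96.0% identical in pairs, and all 3 cofactors were listed at each. This was the only set in which every copy carried the same 3 cofactors. At Cyp4a31, though, the SMRT and HDAC3 centres lay outside the aligned 200 bp. Merging at 100 bp left 5 sites of all 3 cofactors in the cluster, without that one.

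In the first intron, the Cyp4a10 site aligned with the Cyp4a31 site at 88.3% identity and with Cyp4a32 at 86.9%. All 3 cofactors were listed at Cyp4a31, while no peak of any list lay within 200 bp of the Cyp4a32 stretch, whose centre was 1017 bp downstream of the start site. The intron stretches also differed in motif content. Cyp4a10 held 2 matches to TTCNNNGAA, and the Cyp4a31 and Cyp4a32 stretches held 0. The first match (TTCTTAGAA) lay across a run of 10 bases that both relatives lacked, and the second (TTCTCTGAA) read TTCTGTGCA in both, with the changes C5G and A8C counted from the first base of the match. All 3 stretches kept 1 match to TTNNGCAA, the core of the C/EBP motif. The Cyp4a31 peak thus lay on a stretch without these BCL6/STAT letters. The Cyp4a10 centre itself fell in the run that both relatives lacked. Its matching points were therefore placed by distance from the start of each alignment, gaps ignored. The NCoR centre of the Cyp4a31 site was 98 bp upstream of the point placed in this way.

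In other pairs of copies a peak was listed at one place and not at the other. A place without a listed peak was not shown to be unbound. The Cyp4a12b promoter stretch was 96.5% identical to that of Cyp4a12a, which held no peak. The site 8867 bp upstream of Cyp4a12b was 94.5% identical to a stretch 9590 bp upstream of Cyp4a12a, and the site in the Cyp4a12a coding exon was 95.5% identical to a stretch of Cyp4a12b, and neither copy held a peak. The promoter site of Cyp4a32 was 89.6% identical to the stretch 104 bp upstream of Cyp4a31 and 87.2% identical to that 121 bp upstream of Cyp4a10, with no peak at either. The NCoR and HDAC3 site of Cyp4a31 was 93.6% identical to a stretch 11755 bp downstream of the Cyp4a10 start site with no peak. The NCoR-alone site 17182 bp upstream of Cyp4a31 was 97.5% identical to the Cyp4b1 intron site, where HDAC3 was listed as well.

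Since the authors kept only reads that mapped to 1 place, the share of words of read length (75 bases) found once in the genome was computed along the cluster. It was 78.2% over the whole stretch and differed between genes, with 100% in Cyp4a14, 94.4% in Cyp4a31, 92.7% in Cyp4a10, 74.9% in Cyp4a32, 65.7% in Cyp4a12b and 65.1% in Cyp4a12a. Exact words set an upper limit on what an aligner that allows mismatches can place. Within 200 bp of the centre every exact word was unique at 12 of 16 sites. The 4 others were the Cyp4a12b promoter (74.2%), the Cyp4a31 intron (76.4%), the Cyp4a32 promoter (79.4%) and the repeat-masked site upstream of Cyp4a14 (93.9%). The members with the fewest unique words, Cyp4a12a and Cyp4a12b, were also those with no SMRT peak. The part of mappability in this lack of SMRT peaks was not tested.

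Between copies without a peak and their bound partners, the share of unique words was lower at some copies and not at others. It was 73.9% at the Cyp4a12a promoter against 74.2% at the bound Cyp4a12b promoter. For the site upstream of Cyp4a12b, the Cyp4a12a exon site and the NCoR and HDAC3 site of Cyp4a31, it was 100% at the site. It was also 100% at the copy without a peak, at Cyp4a12a, Cyp4a12b and Cyp4a10, respectively. For the bound Cyp4a32 promoter (79.4%) it was 100% at the Cyp4a31 copy and 77.0% at the Cyp4a10 copy. At the first intron of Cyp4a32 the share was 55.8% around the point placed by distance from the Cyp4a10 alignment. It was 55.8% at the point of Cyp4a31 placed likewise, against 100% at Cyp4a10 itself. Around the point of Cyp4a32 placed in the same way for the Cyp4a31 centre it was 72.7%, against 76.4% at Cyp4a31. Leaving out words with a second place in the cluster at up to 2 mismatches lowered the share to 64.5% over the cluster and to 48.5%, 60.7% and 78.8% at the upstream sites of Cyp4a10, Cyp4a31 and Cyp4a32.

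**Figure D5:**
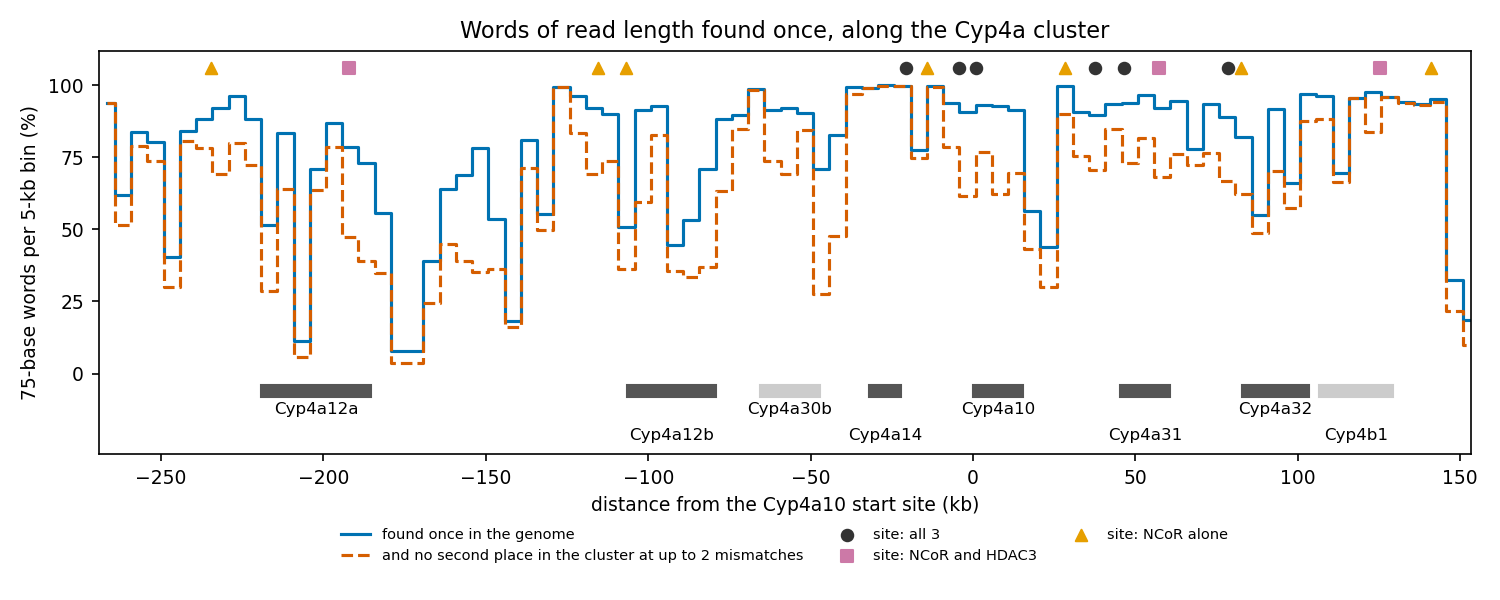
Share of 75-base words (%) in 5-kb bins along the Cyp4a cluster that occur once in the genome (solid line) and that also have no second place in the cluster at up to 2 mismatches (dashed line), in kb from the Cyp4a10 start site; symbols at the top are the 16 sites by class, boxes are genes, and the last bin is shorter. The share falls to 7.94% between Cyp4a12a and Cyp4a12b and is 100% over Cyp4a14.

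Motif letters were searched on both strands in the central 200 bp of each site. AGGTCA was present at 6 of 16 sites (37.5%, 15.2 to 64.6), against 35.8% of all sites, and in 11.1% of 2047 windows of the same length tiled over the rest of the cluster. Of the 6 sites of all 3 cofactors, only the one upstream of Cyp4a14 held AGGTCA. DR1, the paired half-site bound by PPARα with RXR and by HNF4α, was matched at 0 of 16 sites (upper limit of the interval 20.6%), against 1.53% of all sites. With up to 2 mismatches DR1 was still at 0 of 16, against 7.26%. With up to 3 mismatches, an allowance chosen after seeing the data, 7 of 16 matched (43.8%, 19.8 to 70.1), against 25.4%. The 7 included the upstream sites of Cyp4a10, Cyp4a31 and Cyp4a32, which are copies of each other.

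TTCNNNGAA was matched at 1 of 16 sites, the Cyp4a10 intron, against 7.06% of all sites and 8.70% of the tiled windows. In windows of 400 bp it was at 3 of 16, against 13.4% of all sites and 17.2% of tiled windows. For HNF6 and CUX2, hepatocyte factors of which CUX2 is female-biased, ATCGAT or ATTGAT was present at 5 of 16 (31.2%, 11.0 to 58.7), against 16.3%. The C/EBP letters TTNNGCAA were at 3 of 16 (18.8%, 4.05 to 45.6), against 19.1%. The forkhead letters TGTTTAC, the HNF4 half-site CAAAGTCCA and the ERR letters TCAAGGTCA were at 0 of 16, against 7.74%, 2.07% and 1.34%. Each cluster interval for the exact motifs contained the share of all sites, and absence of a match says only that these letters are not in the window. The upstream sites of Cyp4a10, Cyp4a31 and Cyp4a32 are copies of each other. So are the NCoR-alone site upstream of Cyp4a31 and the Cyp4b1 intron site. Matches at copies are not independent, and the motif intervals do not allow for this.

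Omega-oxidation needs partners of CYP4A, and 17 further genes of the route and of the CYP4 family were read in the same way. Of these, 12 of 17 were nearest to at least 1 site, against 49.5% of protein-coding genes, and 6 of 17 to at least 1 site of all 3 cofactors, against 21.0%. Por, the reductase that passes electrons to microsomal cytochromes P450, was nearest to 10 sites, 6 of them bound by all 3, a number reached by 151 of 21911 protein-coding genes. Cyb5a, the cytochrome b5 that can donate an electron to the same enzymes, was nearest to 7 sites, 3 of them bound by all 3, a number reached by 955 genes. Aldh3a2, a fatty aldehyde dehydrogenase that acts later in the route, was nearest to 4 sites and Cyp4f39 to 3, each with 2 bound by all 3. No site was nearest to Cyp4a29, Cyp4a30b, Cyp4f16, Cyp4f18 or Cyp4f40. Cyp4a30b lies between Cyp4a12b and Cyp4a14, and 89.4% of its words of read length were unique.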

How the data were processed

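ChIP-seq was performed by the authors on livers of fed male Bcl6 fl/fl mice with antibodies against SMRT, NCoR and HDAC3 (3 libraries each). Per the study's methods and the labels, the authors aligned 75-base single-end reads to mm10 with Bowtie, kept reads with 1 place, processed them with HOMER, called peaks on pooled replicates against input, and filtered them with DESeq2. The deposited lists give chromosome, start and end only, as positions, with no counts, score or value per replicate. Interval lengths were 212, 228 and 212 bp for SMRT, NCoR and HDAC3. The sources used here state no sequencing depth.

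Peaks within 50 kb of a member gene (GENCODE vM21) were kept, called shared when centres were at most 200 bp apart, and assigned to the nearest start site of a protein-coding transcript. Sites were merged by single linkage and centred on NCoR. Sequences came from GRCm38. Copies were aligned with BLAST+ 2.17.0 (expect value 1e-05), sets with MAFFT 7.526. Words were counted exactly over 22 sequences (chromosomes and mitochondrion), either strand. Scripts ran in Python 3.11.15 and were tested on simulated data. Shares carry exact (Clopper-Pearson) 95% intervals; no test was run, and there are no p-values. The members, gene lists and motifs were chosen with earlier results of these data known. Named genes were the 6 members, any gene nearest to a cluster peak, the 4 omega-oxidation genes with the most sites of all 3 cofactors and those with no site; Cyp4a30b, Alb and the comparison clusters are named as context.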

Additional observations from a re-analysis of the deposited data

How the results depend on the processing

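With no flank around the member genes, 2 SMRT, 4 NCoR and 4 HDAC3 peaks were left, since most sites lay between genes. DR1 was matched at 0 sites by its pattern. It was matched at 7 with up to 3 mismatches to the fixed word, a choice made after seeing the data. Words found once in the genome fell from 78.2% to 68.0% with 50-base words, and to 64.5% without words that had a second place in the cluster at up to 2 mismatches, also chosen after seeing the data. Of 93 values recomputed under alternatives, 81 stayed within 1.5 times the count or within the counting interval, and 12 moved. Flanks of 25 and 100 kb, centre distances of 100 and 400 bp, overlapping intervals and 1 start site per gene moved no count or class share that far. Counting start sites of any gene type, pseudogenes included, left 2 sites at Cyp4a31 and 1 at Cyp4a12a. In windows of 400 bp, TTCNNNGAA was at 3 sites and TGTTTAC at 1, and in windows of 100 bp the HNF6 and CUX2 letters were at 3 and TTNNGCAA at 1. Requiring 150 aligned bases left 12 sites with a copy.

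No paired analysis was possible because the deposited lists give no value per library, so numbered replicates have no values of their own here. For the same reason no replicate was left out, and without scores no stricter threshold was run. Depth could not be read from the lists, so a site without a SMRT or HDAC3 peak is a site not listed, not one shown to be unbound.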
